A study of Canis lupus familiaris with 6 samples.

Results

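BNC1, S100A2 and 8 further genes known from the basal and upper layers of stratified epithelium (BNC2, TP63, KRT5, KRT14, KRT17, SFN, DSG3 and IVL) were followed in RasV12-expressing dog kidney cells grown alone or among normal cells. The members were every non-control probe whose gene name on the array was one of these 10 symbols. Of 43603 probes carrying 34378 names, 13 probes of 9 genes met this rule, and IVL had none. The genes were picked knowing how BNC1 and S100A2 differed between the cultures, so the differences of the members are a description. Where calls from the fit across all probes are counted among them, the count describes that fit and is no test of these genes. The lists of related genes read further on were also chosen with earlier results of these data known, and their counts are a description too.

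MDCK is an epithelial cell line from dog kidney, and the MDCK-pTR GFP-RasV12 line derived from it makes GFP-tagged oncogenic Ras when tetracycline is added. These cells were plated on collagen, either by themselves (alone, 3 arrays) or together with MDCK cells (mixed, 3 arrays), exposed to tetracycline for 24 h and sorted for GFP, and their RNA was read on 1-colour Agilent canine arrays. The comparison asks what the normal neighbours change in RasV12 cells. Both groups carried induced RasV12 and were sorted in the same way, and no uninduced or normal MDCK cells were among the arrays.

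The methods give 10 MDCK cells to each RasV12 cell. The label of mixed replicate 2 gives 100 in place of 10, and the RNA extraction note attached to every sample speaks of cells with an added truncated β-catenin, unlike the titles and source names. Nothing states that the 3 samples of a group were separate cultures, so any error below is the spread between these samples, which may be technical. Each culture had a slide of its own, and the effect of slide and that of culture cannot be told apart. RNA was pooled over sorted cells, and fewer cells making a transcript cannot be told apart from less transcript per cell.

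In skin and similar stratified tissues, dividing basal cells sit on the basement membrane and are held by hemidesmosomes and desmosomes, while their descendants move up, change keratins and build the cornified envelope. The transcription factor p63, product of TP63, switches on much of the basal programme, including the keratin pair KRT5 and KRT14. Basonuclin 1, product of BNC1, is a zinc finger protein of proliferating basal keratinocytes and germ cells, and BNC2 is its relative. Kidney tubules form a simple epithelium with a single layer of cells, whose usual keratins are KRT8, KRT18 and KRT19.

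The probes behind the results lay as follows on the CanFam3.1 assembly, from the scanner files' annotation, which does not say whether a position is coding or untranslated. Each array probe is a strand of 60 bases, of which either the whole or the first 30 bases are shown, 5′ to 3′. The BNC1 and S100A2 probes are shown because these genes differed most, and the others because they were measured well above background. Capitals mark the 21 printed bases that both KRT14 probes hold.
BNC1 probe 1 (A_11_P0000017930, chr3:55041330-55041389, minus strand, first 30 bases): ttgataatatttaatttgtgtttgttacat
BNC1 probe 2 (A_11_P0000032070, chr3:55042132-55042191, minus strand): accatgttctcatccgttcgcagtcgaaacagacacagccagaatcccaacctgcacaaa
S100A2 probe 1 (A_11_P0000033528, chr7:43481725-43481784, plus strand): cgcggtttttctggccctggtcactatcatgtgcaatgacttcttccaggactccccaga
S100A2 probe 2 (A_11_P119366, chr7:43481987-43482046, plus strand, first 30 bases): tggaaatctcctcaaggccagagctatgcc
DSG3 (A_11_P0000019709, chr7:58046567-58046626, minus strand, first 30 bases): actggacatgttgtcactcttacttctcaa
SFN (A_11_P0000030967, chr2:73268959-73269018, minus strand): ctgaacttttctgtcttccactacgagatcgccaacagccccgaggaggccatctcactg
KRT14 probe 1 (A_11_P148833, chr9:21194996-21195055, plus strand, first 30 bases): tgagtcctgCCTCATCCTTGTCCCCTCCTG
KRT14 probe 2 (A_11_P212148, chr9:21195005-21195064, plus strand, first 30 bases): CCTCATCCTTGTCCCCTCCTGgcaatcaat
The pair of BNC1 probes lay 742 bases apart and the pair of S100A2 probes 202 bases apart, so each pair read separate stretches of its transcript. The 2 KRT14 probes shared 51 bases on the genome and are nearly a repeat of one measurement.

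Across the 6 arrays, 60.8% to 66.4% of probes were well above background by the scanner software's call, and the lowest intensity so called on an array was 9.15 to 14.6 units. Values were scaled as log2 processed intensity minus the 75th percentile of the array, which was 592 to 700 units (699.551 on the brightest array), and every difference below is mixed minus alone on this log2 scale. A probe entered the fit across all probes (limma) if every array of at least 1 group called it well above background, as held for 26535 probes. A probe was called when its Benjamini-Hochberg adjusted p was under 0.05, and 2978 probes were. Of the 13 member probes, 9 probes of 6 genes entered the fit. The 4 left out were those of BNC2, TP63 and KRT17 and the second KRT5 probe, while 8 of the 13 were well above background on all 6 arrays.

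BNC1 and S100A2 had lower signal in every mixed array than in any alone array, on both probes of each gene. On the brighter probe of each gene, BNC1 was 4.13-fold and S100A2 3.97-fold lower in RasV12 cells grown among normal cells. The BNC1 probe was dim, and with another background correction (normexp) its difference was -0.80, while that of S100A2 was -1.98. DSG3 and SFN were lower by smaller amounts, KRT14 was lower by an amount that differed between arrays, and KRT5 showed no clear difference. Of the 9 tested member probes, 4 were called lower (2 of BNC1 and 2 of S100A2) and 0 higher in limma's fit, beside 5.72% called lower and 5.5% called higher among all tested probes (11.2% in all). With the replicate numbers as a block, 6 were called lower, those of DSG3 and SFN being added, beside 5.31% called lower among all tested probes. When spike-in controls set the scale, the median of all tested probes moved to -0.16 and the share of calls that were higher from 49.0% to 30.2%. In 6 of the 9 the groups did not overlap with mixed lower, as was so for 19.4% of all tested probes (37.2% in either direction). These counts are not read further, because the genes were chosen on this contrast. The median difference of the 9 probes was -0.67, and that of all tested probes -0.0037.

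**Figure D1:**
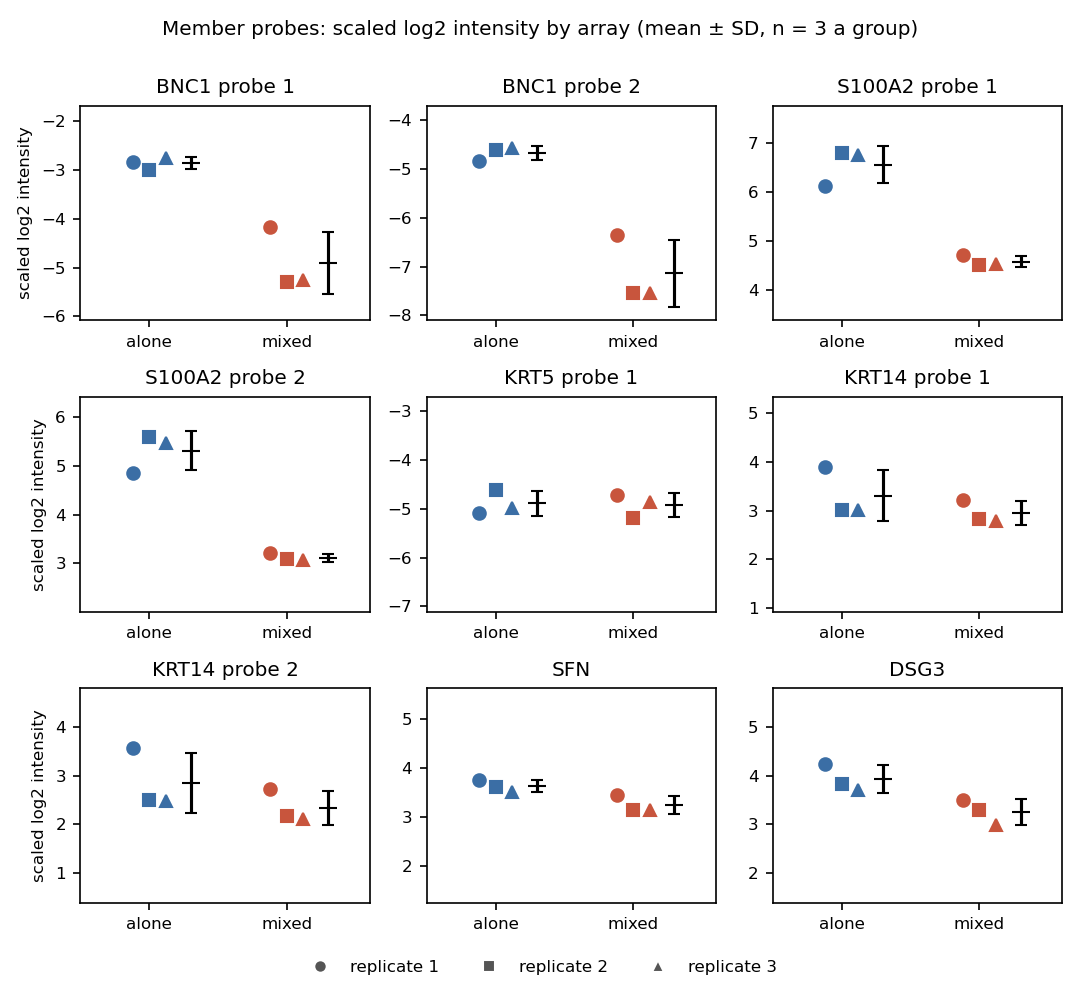
Scaled log2 intensity (y axis, log2 units relative to the 75th percentile of the array, each panel spanning the same number of log2 units) of the 9 tested member probes in the alone (blue) and mixed (red) arrays, with symbols for replicates 1 to 3 and the mean ± SD beside each group. The groups are apart for BNC1, S100A2, SFN and DSG3, and overlap for KRT5 and KRT14.

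BNC1 probe 1 read 87.2, 87.7 and 95.4 intensity units in the alone arrays, replicates 1 to 3. In the mixed arrays it read 35.1, 16.5 and 15.5. The alone arrays lay close together, and every mixed array was below them, with mixed replicate 1 the highest of its group. On the scaled log2 axis the means were -2.86 ± 0.12 (SD, n = 3) alone and -4.91 ± 0.64 (SD, n = 3) mixed. The difference was -2.05 (SE 0.30), or 4.13-fold lower in mixed culture. Without mixed replicate 1 the difference was -2.42 (SE 0.098).

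BNC1 probe 2, nearer the 5′ end of the transcript, read 21.7, 28.8 and 27.2 units alone. The mixed arrays read 7.77, 3.49 and 3.19 units, none of them well above background. Mixed replicate 1 was again the highest of the mixed arrays, and the groups did not overlap. The mean of the alone arrays was 1.88-fold above the lowest signal called well above background on each mixed array. This is no strict bound, since a probe can read above that level without being called, as BNC2 did. The fitted difference of -2.47 (SE 0.32) is no bound either, since it uses the dim readings as they stand. Both BNC1 probes were dim enough for the background treatment to matter. With normexp background correction and its offset of 50, which compresses dim probes, the differences were -0.80 and -0.26, still lower in mixed culture.

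BNC2, the relative of BNC1, was near the limit of measurement on its only probe under the rule (chr11:36530576-36530635). It read 14.7, 23.2 and 16.7 units alone. It read 17.0, 25.5 and 25.7 units mixed. In each group 2 of 3 arrays called it well above background, the groups overlapped, and it was left out of the fit. A further probe described as BNC2 but carrying a transcript cluster name (chr11:36610795-36610854) fell outside the rule and was looked at after its values were seen. It read 296, 437 and 437 units alone and 180, 185 and 182 units mixed (179.788 in replicate 1), lower in all 3 mixed arrays, with a difference of -1.01 (SE 0.14). Another such probe (chr11:36512067-36512126) overlapped between the groups, at 0.26 (SE 0.21), so the probes assigned to BNC2 did not run one way.

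S100A2 encodes a small calcium-binding protein of the EF-hand type, known from basal keratinocytes. S100A2 probe 1 read 43375, 78172 and 69939.9 units alone. In the mixed arrays it read 16442, 14672 and 13635 units. Here alone replicate 1 was the lowest of its group, the mixed arrays were close together, and the groups did not overlap. The scaled means were 6.57 ± 0.38 (SD, n = 3) alone and 4.58 ± 0.11 (SD, n = 3) mixed. The difference was -1.99 (SE 0.19), or 3.97-fold lower in mixed culture. No array was saturated at either S100A2 probe.

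S100A2 probe 2 gave the same order of arrays. It read 17850.1, 33857 and 28608 units alone. It read 5818, 5491 and 4939.9 units mixed. The alone arrays spread more than the mixed ones, as on probe 1, and alone replicate 1 was again the lowest of the alone arrays. The difference was -2.19 (SE 0.19), or 4.57-fold lower in mixed culture. Without alone replicate 1 the differences at the S100A2 probes were -2.21 (SE 0.086) and -2.42 (SE 0.080).

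DSG3, the desmosomal cadherin of the lower layers of stratified epithelium and an autoantigen of pemphigus vulgaris, was well above background on all 6 arrays. It read 11724.5, 9929 and 8417 units alone. It read 7178, 6341 and 4671 units mixed. Every mixed array was below every alone array, and replicate 1 was the highest of each group. The difference was -0.67 (SE 0.18), 1.59-fold lower in mixed culture.

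SFN encodes 14-3-3σ, an adaptor protein that binds phosphorylated partners and is abundant in stratified epithelium. It read 8409, 8515 and 7388 units alone. It read 6895, 5757 and 5188 units mixed. The groups did not overlap, though the highest mixed array came close to the lowest alone array. The difference was -0.39 (SE 0.12), 1.31-fold lower in mixed culture.

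KRT14, the type I keratin of basal cells, gave overlapping groups. Its probe 1 read 9247, 5643 and 5179 units alone. It read 5905, 4612 and 4099 units mixed. Alone replicate 1 stood far above the other alone arrays, and the highest mixed array exceeded 2 of the alone arrays. The difference was -0.36 (SE 0.26), and -0.06 (SE 0.15) without alone replicate 1. Its overlapping probe 2 gave -0.51 (SE 0.32), and -0.16 (SE 0.20) without that array. Replicate 1 was the highest of both groups, and taken by replicate number the mixed array was lower in all 3 pairs, with differences of -0.67, -0.18 and -0.21 on probe 1 and -0.83, -0.34 and -0.37 on probe 2.

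KRT5, the type II partner of KRT14, was close to background at its probe 1 (chr27:2573126-2573185). It read 18.3, 28.7 and 20.3 units alone. It read 23.8, 17.7 and 20.5 units mixed. The groups overlapped throughout, and the difference was -0.03 (SE 0.17), which was positive in 3 of 14 other settings. KRT5 probe 2 (chr27:2573469-2573528) read 2.47 to 8.43 units and was well above background on none of the 6 arrays. Further probes described as KRT5 under a transcript identifier fell outside the rule, and 2 of the 3 were well above background on all 6 arrays. The brighter one (chr27:2572405-2572924) read 171, 217 and 175 units alone and 154, 193 and 174 units mixed, with overlapping groups and a difference of -0.04 (SE 0.11). The other (chr27:2573118-2573177) overlapped KRT5 probe 1 over most of its length and is nearly a repeat of that measurement. It read 29.8 to 41.5 units, with a difference of 0.19 (SE 0.10).

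KRT17, a type I keratin of hair follicles and of stressed or wounded epidermis, lay 38.4 kb from KRT14 on chromosome 9 (chr9:21156552-21156611). It read 2.87, 5.44 and 1.98 units alone. It read 7.40, 10.4 and 7.81 units mixed. The mixed arrays were the higher ones, but no array was well above background, so no fold is given.

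TP63 had 1 probe, whose 60 bases span 3374 bases of the genome (chr34:21979114-21982487) and therefore cross at least one splice junction. It read 2.87, 2.57 and 1.98 units alone. It read 3.12, 2.78 and 2.60 units mixed. All 6 readings were below the lowest intensity called well above background on their array, and transcripts without this junction are not read by the probe. Involucrin (IVL), a precursor of the cornified envelope, had no probe by name. A probe described as involucrin under a transcript identifier (chr17:61716426-61716485), outside the rule, read 5.21 to 6.56 units and was not well above background on any array.

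**Figure D2:**
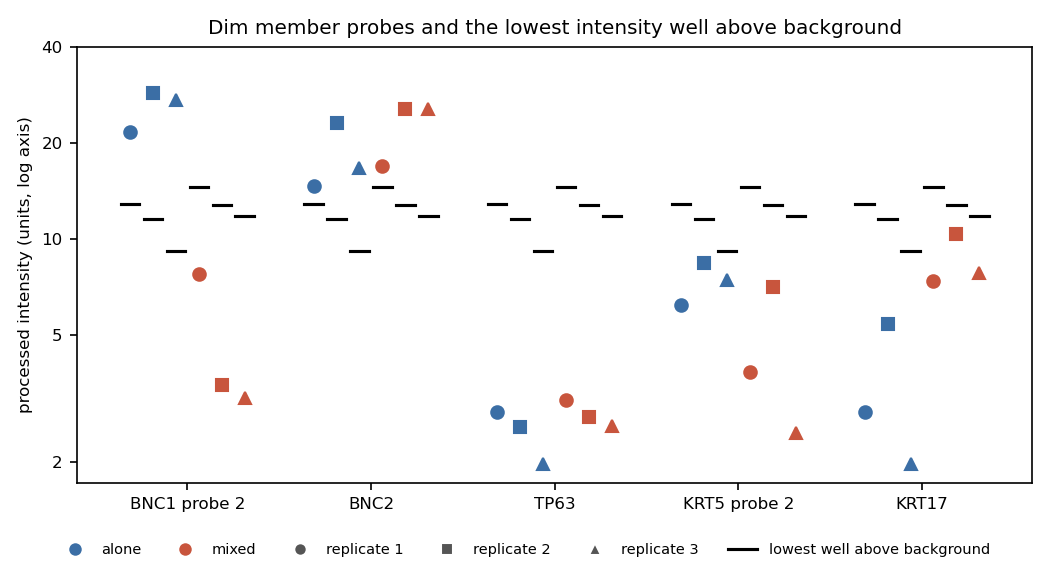
Processed intensity (y axis, intensity units, log axis) of the 5 dim member probes on each array, with alone in blue, mixed in red and symbols for replicates 1 to 3. The black bar at each point is the lowest intensity called well above background on that array. TP63, KRT17 and KRT5 probe 2 lie below the bar on all 6 arrays, and BNC1 probe 2 lies below it on the 3 mixed arrays.

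The label of basal epithelium was thus met by some of its markers and not by others. TP63, read by a single junction probe, and KRT17 were not well above background on any of the 6 arrays. KRT14, SFN, DSG3, BNC1 and S100A2 were measured, and KRT5 was on 1 of its 2 probes under the rule and on 2 of 3 outside it. Of the latter, 1 overlapped KRT5 probe 1. The members are therefore named singly, and no cell type is given to the cells. The simple epithelial keratins KRT18 and KRT19 were well above background on all 6 arrays. They differed by 0.13 (SE 0.12) and 0.04 (SE 0.15), with limma adjusted p of 0.484 and 0.894. Both signs turned, to -0.029 and -0.12, when spike-in controls set the scale. KRT8 was not on the array by that name.

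S100A2 lies in a cluster of S100 genes, which allowed its neighbours to be read on the same arrays. On chromosome 7, 10 other S100 genes had probes between 39.9 kb before and 85.5 kb after the first S100A2 probe, taken by their position. Tested probes of 9 of these genes (10 probes) gave differences from -0.63 to 0.61, all smaller in size than those of S100A2. S100A4, a motility-associated family member 14.2 kb away, was the 1 that was called, and it rose by 0.38 (SE 0.075, limma adjusted p = 0.0313). Its call was lost with spike-in scaling, at 0.22. The nearest tested neighbour, S100A3 at 10.3 kb, gave -0.13 (SE 0.17). S100A5 gave 0.61 (SE 0.16), and S100A8 and S100A9, the subunits of calprotectin, gave -0.63 (SE 0.16) and -0.61 (SE 0.16). The tested S100A9 probe was well above background on the 3 alone arrays but on no mixed array. Its difference therefore uses dim readings as they stand. Another S100A9 probe was well above background on no array and was not tested. S100A3, S100A5, S100A8 and S100A9 did not pass (limma adjusted p of 0.648, 0.0612, 0.0564 and 0.0573). S100A5 and S100A8 did with the replicate block and with normexp background correction, and S100A8 also with quantile normalization.

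**Figure D3:**
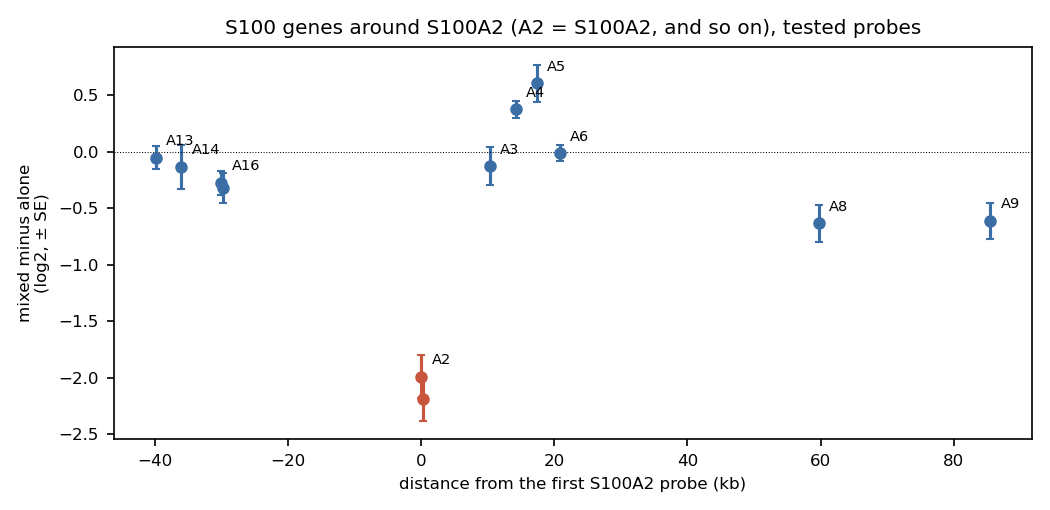
Difference between mixed and alone arrays (y axis, log2, ± SE) of the tested S100 probes on dog chromosome 7 by distance from the first S100A2 probe (x axis, kb), with S100A2 in red and its neighbours in blue. The S100A2 probes lie at -1.99 and -2.19, and the 10 probes of neighbouring genes between -0.63 and 0.61.

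Over the whole S100 family apart from S100A2, 11 of 20 listed genes were tested, 1 was called higher and 0 lower by limma, and the median was -0.13. Among the 14-3-3 genes, relatives of SFN, all 6 were tested, 0 were called by limma or by the methods' t-test (1 had an unadjusted p under 0.05 in limma), and the median was -0.11. Among all genes at 1 probe a name, 5.29% were called lower and 5.62% higher.

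Genes with which the members work were followed on a list of 40 for the basal layer, the hemidesmosome and p63-linked adhesion, none of them members. Like the other lists, this one was chosen with earlier results of these data known, so its counts are a description. Of 32 on the array, 25 were tested, 8 were called lower and 0 higher, and 20 of the 25 lay below 0, with a median of -0.17. LAMA3, a laminin chain of the epidermal basement membrane, fell by 1.00 (SE 0.091, limma adjusted p = 0.0103). LAMB3, another laminin chain of that membrane, gave -0.17 (SE 0.13) and did not pass (limma adjusted p = 0.399).

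CD44, the hyaluronan receptor, fell by 0.78 (SE 0.11, limma adjusted p = 0.0183), and EPHA2, a receptor tyrosine kinase for ephrins, by 0.71 (SE 0.12, limma adjusted p = 0.0242). DSC3, the desmosomal cadherin that partners DSG3, fell by 0.57 (SE 0.090, limma adjusted p = 0.0199). Further calls on this list, named after their values were seen, were the Notch ligand JAG2 (-0.63), the serpin SERPINB5 (-0.55) and the laminin-binding integrin chain ITGA6 (-0.49). COL17A1, the hemidesmosomal collagen, gave -0.49 (SE 0.16) and PERP, a p63-regulated desmosomal protein, -0.13 (SE 0.081). Neither passed, with limma adjusted p of 0.0889 and 0.334. COL17A1 was called in 1 of 14 other settings, at -0.67 without alone replicate 1, a fit that called 7335 probes of the array. ITGB4, the partner of ITGA6 in hemidesmosomes, was not on the array by that name.

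Regulators and partners of p63 and basonuclin did not move one way. Of 32 listed, 20 were tested, 2 were called higher and 1 lower, and the median was 0.01. GRHL3, a grainyhead factor of epidermal barrier formation, rose by 1.38 (SE 0.17, limma adjusted p = 0.0136), though by 0.43 with normexp background correction. Its probe was dim, at 18.4, 14.3 and 13.8 units alone and 43.3, 39.3 and 32.3 units mixed, though well above background on all 6 arrays. ELF3, an ETS factor of epithelial differentiation, rose by 0.71 (SE 0.073, limma adjusted p = 0.0129), a call that was lost with spike-in scaling, at 0.55. FBXW7, a substrate receptor of a ubiquitin ligase, fell by 0.55 (SE 0.13, limma adjusted p = 0.0482), which did not pass with the replicate block (adjusted p = 0.0728) or with spike-in scaling. TP73, a relative of TP63, gave 0.63 (SE 0.29, limma adjusted p = 0.189) and passed with the replicate block (adjusted p = 0.0351). The block called 5 genes of this list.

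Genes of the suprabasal layers and the cornified envelope were mostly dim, with 16 of 35 genes on the array well above background on no array, KRT1 among them. Of the 13 tested, 1 was called higher and 0 lower, and 12 gave positive values, with a median of 0.17. With spike-in scaling, 9 of the 13 were positive, the median was 0.01 and EVPL was no longer called. EVPL, which encodes envoplakin, a scaffold of the cornified envelope, rose by 0.44 (SE 0.077, limma adjusted p = 0.0241). The block called 2 genes of this list.

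**Figure D4:**
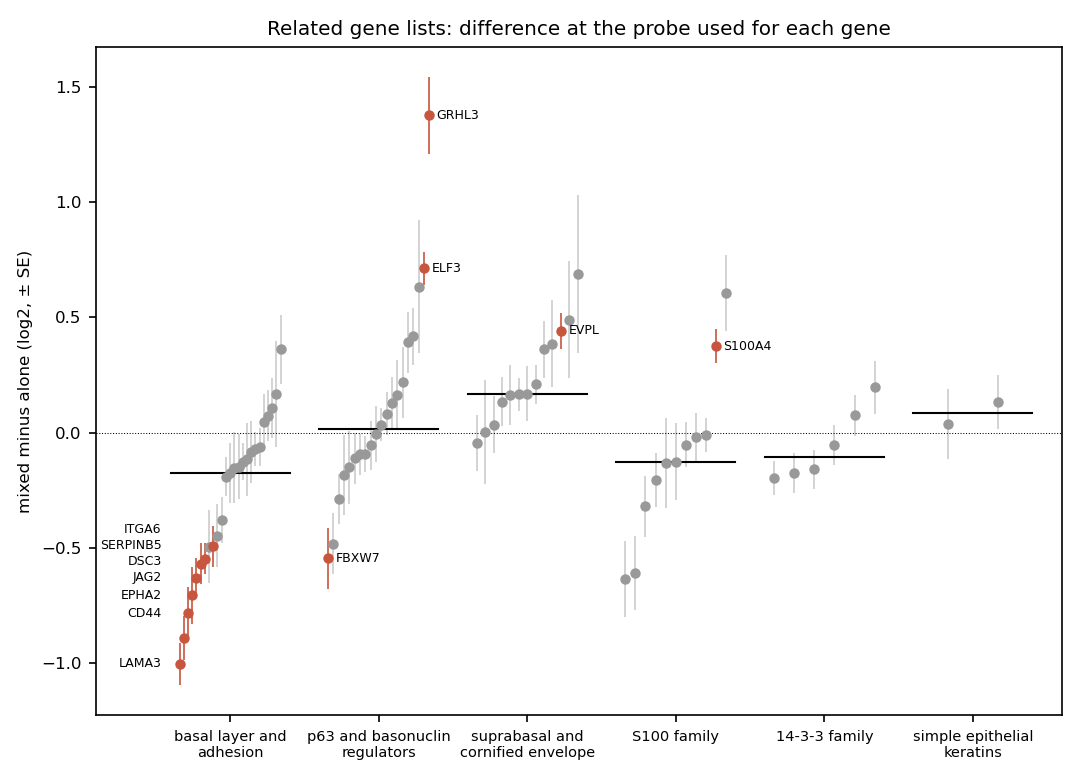
Difference between mixed and alone arrays (y axis, log2, ± SE) of each tested gene of 6 related lists (x axis), at the probe used for that gene, with called genes in red, most of them named, the others in grey, and the list's median as a black line. Of the basal layer and adhesion list, 8 genes were called, all lower. GRHL3, read by a dim probe, had the highest value, at 1.38.

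Markers of other cells and of the Ras state were read beside these results. Genes that respond to Ras-MAPK signalling gave a summed level, relative to the 75th percentile, of 82.5 to 86.8 alone and 71.4 to 78.6 mixed. Of 16 tested, 12 lay below 0 and 4 above, with a median of -0.19. Limma called 3 lower: the EGF receptor ligand EREG (-0.72), the cyclin CCND1 (-0.59) and the AP-1 subunit FOSL1 (-0.52). It called 1 higher, the immediate early factor EGR1, at 0.77. In that order the limma adjusted p were 0.0103, 0.0366, 0.0193 and 0.0157. CCND1 did not pass with the replicate block. The calls of CCND1 and FOSL1 were lost with spike-in scaling, and that of CCND1 also with quantile normalization. Kidney and simple epithelial markers summed to 412 to 499 alone and 452 to 511 mixed, with LHX1 well above background on no array. Fibroblast markers summed to 0.76 to 0.86 alone and 0.89 to 1.02 mixed, with COL3A1 and PDGFRA not well above background. Leukocyte markers summed to 1.84 to 2.02 alone and 2.04 to 2.15 mixed, with PTPRC and LYZ not well above background. Of these 3 marker lists, 0 genes of 11, 6 and 4 tested were called by limma or by the methods' t-test, with 4, 3 and 0 at an unadjusted p under 0.05 in limma. Of the kidney and simple epithelial markers, TJP1 was called higher with quantile normalization and CLDN4 with the replicate block. With normexp CDH1, CLDN4 and TJP1 were called, 2 higher and 1 lower. In those settings 0 fibroblast and 0 leukocyte markers were called. The part of any of these lists in the BNC1 and S100A2 results was not tested.

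Among the 5 genes whose pattern over the 6 arrays was most like that of BNC1 probe 1, by Pearson correlation of scaled log2 values among 14620 probes with a gene name and measured on every array, were PLA2G3, KLHL12, CDC37 and PDHA1, with r from 0.995 to 0.998. For S100A2 probe 1 the 5 were TMEM181, UBA3, ACER3, ARNT2 and HADH, with r of 0.999 to 1.000 (0.99986 for TMEM181). No gene was on both lists. These are descriptions over 6 arrays that share slides and groups, and the 9 genes named here themselves differed between cultures by -0.25 to -0.74.

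The size of the BNC1 and S100A2 differences held when any single array was left out, but the calls did not. BNC1 probe 1 ranged from -1.85 to -2.42, S100A2 probe 1 from -1.87 to -2.21 and S100A2 probe 2 from -2.05 to -2.42. Without alone replicate 2, alone replicate 3, mixed replicate 2 or mixed replicate 3, 0 member probes and 0 genes of the 6 related lists were called by limma, with 5 or 6 member probes and 19 to 25 listed genes at an unadjusted p under 0.05. In those fits 7 to 24 probes of the whole array were called.

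**Figure D5:**
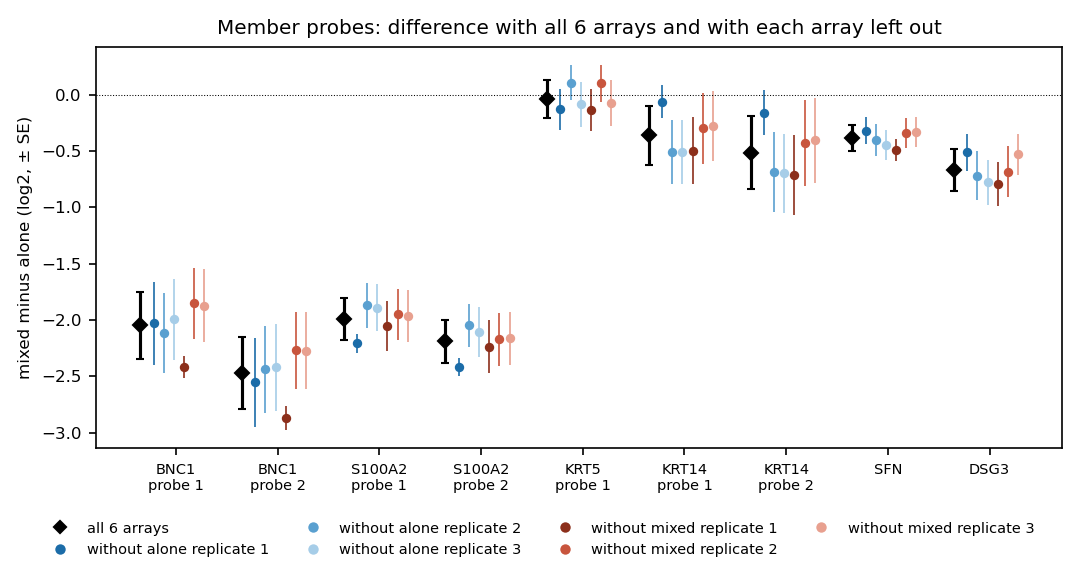
Difference between mixed and alone arrays (y axis, log2, ± SE) of the 9 tested member probes (x axis) with all 6 arrays (black diamonds) and with each array left out (blue, an alone array; red, a mixed array). BNC1 and S100A2 lie at -1.85 or lower at every point, and the KRT14 probes move to -0.06 and -0.16 without alone replicate 1.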

How the data were processed

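RNA of GFP-sorted RasV12 cells was read on 6 Agilent canine arrays, 3 alone and 3 mixed, grouped by the labels. The authors deposited, per array, Agilent Feature Extraction output (version 10.10.1.1, protocol GE1_1010_Sep10, per the file headers) with processed intensity, mean signal, local background and flags. A second deposited table holds log2 values and equals log2 processed intensity minus the 75th percentile within 0.02 for all but 1 value of its 26529 probes. The number of arrays limits the precision.

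Control spots and 6 to 12 outlier-flagged spots an array were left out of 43803, spots of a probe were averaged, and log2 values were scaled on the 75th percentile. limma 3.58.1 (R 4.3.3; lmFit, eBayes, two-sided, Benjamini-Hochberg over 26535 probes) compared the groups without a block. The methods name an unpaired t-test for this kind of array but no scaling or filter. The code was tested on simulated data. A list counts 1 probe a gene, the tested one with the highest mean. Summed levels use the mean over a gene's probes.

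Replicate numbers in the labels were checked for pairing: deviations from group means correlated at 0.35, 0.16 and 0.30 for equal numbers, each over 0.1, and at -0.33 to 0.24 otherwise. Alone replicate 2 correlated more with mixed replicate 3 (0.24) than with mixed replicate 2 (0.16). The number is also the array's position on its slide, so pairing and position cannot be told apart. The main fit used no block, and a fit with a replicate block is given as an alternative.

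The members and the lists were chosen with earlier results of these data known. Named were all members, the 4 largest calls of each list, genes named whatever their value (KRT8, KRT18, KRT19, TP73, ITGB4, COL17A1, LAMB3, DSC3, PERP) and the 5 genes most like BNC1 and S100A2, except items that are not reported here. Alternatives were quantile and spike-in scaling, normexp, other filters, the deposited table, a replicate block, the methods' t-test, any probe of a gene, and leaving out each array. No other setting was added later.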

Additional observations from a re-analysis of the deposited data

How the results depend on the processing

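The 4 calls among the member probes, the 13 called genes over the 6 related lists and the 2978 called probes of the array changed with the array left out, the filter, the scaling and the test. Without a filter on dim probes, 12 probes of the array, 0 member probes and 0 listed genes were called by limma, with 7 member probes and 28 listed genes at an unadjusted p under 0.05, in a fit of 43603 probes. With the methods' t-test after adjustment the counts were 826, 2 and 5. With spike-in scaling 1039 probes of the array were called, and the spike-ins themselves read 0.11 to 0.24 higher on the mixed arrays. With one array left out, the counts ranged from 7 to 7335 on the array, 0 to 5 among members and 0 to 24 on the lists. On the array 7335 probes were called when alone replicate 1 was left out, 24 for alone replicate 2, 7 for alone replicate 3, 9 for mixed replicate 2 and 12 for mixed replicate 3. The cause was not tested. KRT18 turned to -0.029 with spike-in scaling and KRT19 to -0.12. With one array left out KRT19 ranged from -0.070 to 0.17 and was negative, at -0.064, without alone replicate 2 and, at -0.070, without mixed replicate 1. With the replicate block 2825 probes of the array, 6 member probes and 19 listed genes were called, and of the genes named above the block changed the calls of DSG3, SFN, FBXW7, CCND1, TP73, S100A5 and S100A8. The signs of BNC1, S100A2, KRT14, SFN and DSG3 were the same in all 14 other settings in which the probe was tested. A slide block could not be fitted, as each slide held 1 group. TP63, KRT17 and KRT5 probe 2 were well above background on none of the 6 arrays, so no fold is given for them. KRT17 still read higher in every mixed array than in any alone array.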
